A study of Mus musculus with 30 samples.

Results

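The kidney transcriptome of WD + CHP mice was compared with that of CD mice. The comparison was taken as the sample labels give it, and it rests on 10 of the 30 libraries of the series: 5 from the WD + CHP group and 5 from the CD group, each from the kidney of a different mouse. All of these were wild-type male C57BL/6J mice that were moved to thermoneutral housing (30 to 32 °C) at 6 weeks of age. CD mice ate a chow diet and received water by gavage, whereas WD + CHP mice ate a western diet (WD) and were gavaged with cyclo(His-Pro) (CHP, in which histidine and proline form a ring) at a dose of 20 mg/kg. Gavage was given on 3 days of each week between Week 7 and Week 24, when the mice were fasted for 3 h and killed. The diet and the compound thus differ together between these groups, and their parts in a difference cannot be told apart from these 10 libraries alone. The 5 kidney libraries of WD mice, which ate the WD and received water, entered the same model and are shown beside the values of some genes.

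The nephron filters blood in the glomerulus and recovers solutes along the tubule. Its proximal segment reabsorbs glucose, amino acids, phosphate and organic anions and burns fatty acids for fuel, and its distal segments adjust sodium, calcium and magnesium. A diet rich in fat and sugar is known to load the tubule with lipid and to alter its fuel use, and genes of fuel choice such as *Pdk4* and *Txnip* follow insulin and nutrient supply in many tissues. CHP is formed from thyrotropin-releasing hormone and is also present in protein hydrolysates.

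Library totals ranged from 37189192 to 38211422 counts, and were lower in WD + CHP than in CD (37508201 ± 253749 against 38003904 ± 216091, SD, n = 5 each, exact permutation p = 0.0238, two-sided). Mitochondrial genes took 20.3% ± 0.91 of the counts in WD + CHP and 18.8% ± 0.73 in CD (exact permutation p = 0.0317, and 0.0556 without any of CD replicates 2, 4 and 5 and WD + CHP replicates 3 and 4), and the 10 most abundant genes took 26.2% and 24.6% (exact permutation p = 0.0238). Their part in the results below was not tested. The labels name frozen liver as starting material, whereas the methods name frozen kidney among the tissues. After filtering of low counts, all 43 proximal tubule genes remained, against 2 of 10 skeletal muscle markers and 1 of 8 markers of the adrenal cortex. Library-scaled counts (CPM) of 14 hepatocyte markers summed to 123 to 282 in CD and 222 to 284 in WD + CHP (exact permutation p = 0.0397), and none of the 14 was at 0 in all libraries. With transthyretin (*Ttr*) left out, the sum was 58.5 to 164 in CD and 47.0 to 89.4 in WD + CHP (exact permutation p = 0.921).

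**Figure D1:**
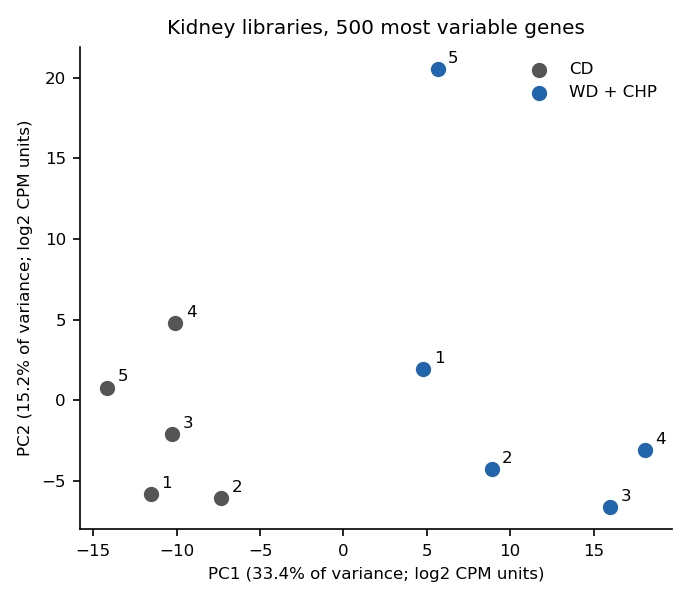
Principal component analysis of the 500 most variable genes (log2 CPM) in the 10 kidney libraries. Each point is 1 library with its replicate number. PC1 (33.4% of the variance) separates CD from WD + CHP, and WD + CHP replicate 5 lies alone at 20.5 on PC2 (15.2% of the variance).

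The 2 groups separated on the first principal component, on which all 5 CD libraries lay below all 5 WD + CHP libraries. The group centres lay 21.6 units apart on the first 2 components (exact permutation p = 0.00794, the smallest that 252 splits can give). WD + CHP replicate 5 stood apart on the second component, and counts without it are given below.

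Of 17120 genes tested, 2070 differed between WD + CHP and CD at an adjusted p under 0.05 (12.1%; edgeR quasi-likelihood test, Benjamini-Hochberg). Of these, 1070 (6.25%) were higher and 1000 (5.84%) lower in WD + CHP. Most differences were small: the median absolute log2 fold change of the 2070 genes was 0.29, 1572 of them lay under 0.5, and 159 reached 1, of which 115 were higher and 44 lower. The values of the 2 groups did not overlap for 1428 genes (8.34%), and 1174 of these passed the test. The median log2 fold change over all genes was -0.0050. Scaling by total count alone moved it to -0.057 and turned the split to 660 higher and 1814 lower, which kept 660 of the 1070 higher genes and all 1000 lower ones. The number of genes passing was 1249 when CD replicate 5 was left out, and 1294, 1202 and 1962 when WD + CHP replicates 3, 4 and 5 were left out in turn. Calls were refitted without each library in turn (10 fits) and under 10 other settings of tool, scaling, filter, groups, block and offsets, and losses are given beside the genes. In the same model, WD differed from CD in 1652 genes (9.65%) and WD + CHP from WD in 18 (0.105%). Both of these comparisons share libraries with the one described here, so their values are given side by side only. In bulk tissue, fewer cells of a type and less RNA per cell cannot be told apart. The edgeR p-values set a group difference against the spread within groups over all 15 kidney libraries. With 1 library per mouse, that spread holds differences between mice and between preparations together.

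Genes with large rises are described first, each beside its relatives. *Nat8f5*, of the N-acetyltransferase 8 family that acts on conjugates and amino acids in the proximal tubule, was at 8.75, 11.3, 10.5, 8.28 and 4.15 CPM in CD replicates 1 to 5 and at 26.9, 32.9, 56.4, 53.2 and 38.5 CPM in WD + CHP. Every WD + CHP library lay far above every CD library, and the fold change was 4.84 (log2 2.28 ± 0.22, SE, adjusted p = 3.68e-05). *Nat8f6* rose from 39.8 ± 12.4 to 93.0 ± 26.6 CPM (SD, n = 5, as for all CPM means below; log2 1.22, adjusted p = 0.00144) and *Nat8* from 115 ± 12.6 to 187 ± 38.8 (log2 0.70, adjusted p = 0.00117). The annotated spans of *Nat8f5* (GRCm38, chr6:85817218-85820972) and *Nat8f6* (chr6:85808024-85820954) overlap on the same strand, and the 3 genes are near copies, so that reads may be split between them.

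*Cyp4a12b* and *Cyp4a12a*, near-identical omega-hydroxylases of fatty acids that male mouse kidney expresses, also rose. *Cyp4a12b* was at 9.66, 5.63, 7.11, 4.44 and 2.52 CPM in CD and 25.5, 33.0, 27.7, 23.8 and 9.80 in WD + CHP (log2 2.03 ± 0.33, adjusted p = 0.00136). The groups did not overlap, although WD + CHP replicate 5 lay just above CD replicate 1 and apart from the other WD + CHP libraries. *Cyp4a12a* was at 80.4, 132, 55.6, 12.3 and 34.4 CPM in CD and 194, 163, 371, 331 and 121 in WD + CHP (log2 1.91 ± 0.44, adjusted p = 0.0108). CD libraries of *Cyp4a12a* ranged over a wide span, and the highest of them lay above the lowest WD + CHP library.

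*Ccnd1*, which encodes cyclin D1 and drives entry into the cell cycle, was at 57.0, 57.3, 56.8, 55.1 and 55.0 CPM in CD and 116, 105, 189, 221 and 169.7 in WD + CHP. The CD libraries were nearly equal and every WD + CHP library lay far above them, at a fold change of 2.85 (log2 1.51 ± 0.16, adjusted p = 0.000121). *Mki67* and *Top2a*, markers of dividing cells, rose from 1.80 ± 0.326 to 5.60 ± 1.82 CPM (log2 1.63, adjusted p = 0.000266) and from 1.35 ± 0.249 to 3.21 ± 0.846 CPM (log2 1.24, adjusted p = 0.00163). In WD, these 3 genes stood at 166 ± 27.0, 4.45 ± 0.584 and 2.84 ± 0.690 CPM.

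*Lcor*, a corepressor of nuclear receptors, was at 1.36, 3.79, 2.56, 2.24 and 1.83 CPM in CD, 1.58, 3.79, 3.11, 3.59 and 2.61 in WD and 5.04, 7.64, 8.12, 9.18 and 6.68 in WD + CHP. All WD + CHP libraries lay above all others (against CD, log2 1.64 ± 0.24, adjusted p = 0.00101). It did not pass between WD and CD (log2 0.32, adjusted p = 0.48) and was the only one of the 24 largest changes that also passed between WD + CHP and WD (log2 1.32 ± 0.24, adjusted p = 0.0442). *Cntnap5a*, a cell adhesion protein of the neurexin family, rose from 2.16 ± 1.35 to 7.63 ± 3.98 CPM (log2 1.82, adjusted p = 0.00657), with WD at 3.4 ± 0.844. *Smoc1*, a calcium-binding matrix protein, rose from 2.13 ± 0.534 to 6.35 ± 3.62 CPM (log2 1.57, adjusted p = 0.00549). The remaining large rises were *Tchhl1* (log2 1.34), the guanine deaminase *Gda* (log2 1.25) and *Tmem52* (log2 1.23), with adjusted p-values of 0.000201, 0.0017 and 0.000177.

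Genes with large falls are described next. *Ces1g*, a carboxylesterase that hydrolyses lipid esters and has close copies in the mouse, was at 23.2, 24.4, 16.5, 48.1 and 23.4 CPM in CD and 5.69, 6.95, 1.28, 2.52 and 4.46 in WD + CHP. Every WD + CHP library lay well below every CD library (log2 -2.69 ± 0.38, adjusted p = 0.000822), and WD stood at 6.20 ± 2.74 CPM. *Col6a6*, a chain of collagen VI, fell from 8.26 ± 2.99 to 2.20 ± 0.362 CPM (log2 -1.91, adjusted p = 0.00104).

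*Pdk4*, the kinase that shuts pyruvate out of the citric acid cycle when fat is burnt, was at 135, 106, 110.4, 79.4 and 79.5 CPM in CD and 43.0, 55.7, 21.2, 27.5 and 28.9 in WD + CHP (log2 -1.53 ± 0.25, adjusted p = 0.00136). The groups did not overlap, and WD + CHP replicates 1 and 2 lay above the other WD + CHP libraries. *Igfbp1*, a binding protein of insulin-like growth factors that insulin represses, fell from 23.3 ± 4.84 to 9.23 ± 3.76 CPM (log2 -1.34, adjusted p = 0.00147).

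*Slc22a26* and *Slc22a19*, organic anion carriers of a cluster of close copies on chromosome 19, fell from 62.3 ± 10.7 to 22.7 ± 9.48 CPM (log2 -1.46, adjusted p = 0.00117) and from 115 ± 12.9 to 56.7 ± 17.5 CPM (log2 -1.02, adjusted p = 0.0018). *Slc22a30* of the same cluster moved the other way, from 176 ± 23.5 to 232 ± 28.9 CPM (log2 0.40, adjusted p = 0.00942). *Stra6l*, a receptor for retinol-binding protein, fell from 24.2 ± 3.22 to 11.2 ± 5.07 CPM (log2 -1.11, adjusted p = 0.00379). Its WD + CHP libraries fell into a pair at 16.4 and 17.0 CPM and 3 at 6.54 to 8.69 CPM, all below the lowest CD library at 21.6 CPM. *Lrat*, which esterifies retinol for storage, fell from 7.68 ± 1.91 to 3.73 ± 1.85 CPM (log2 -1.04, adjusted p = 0.0214), a call lost without CD replicate 1 (adjusted p = 0.0591), WD + CHP replicate 3 (0.0565) or WD + CHP replicate 4 (0.0506). The other large falls were the complement regulator *Cfi* (log2 -1.44), *Amdhd1* of histidine breakdown (log2 -1.20), *Sec14l3*, a lipid-binding protein (log2 -1.14), and *Wfdc16* (log2 -1.21), with adjusted p-values of 0.0054, 0.00227, 0.00275 and 0.00378.

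**Figure D2:**
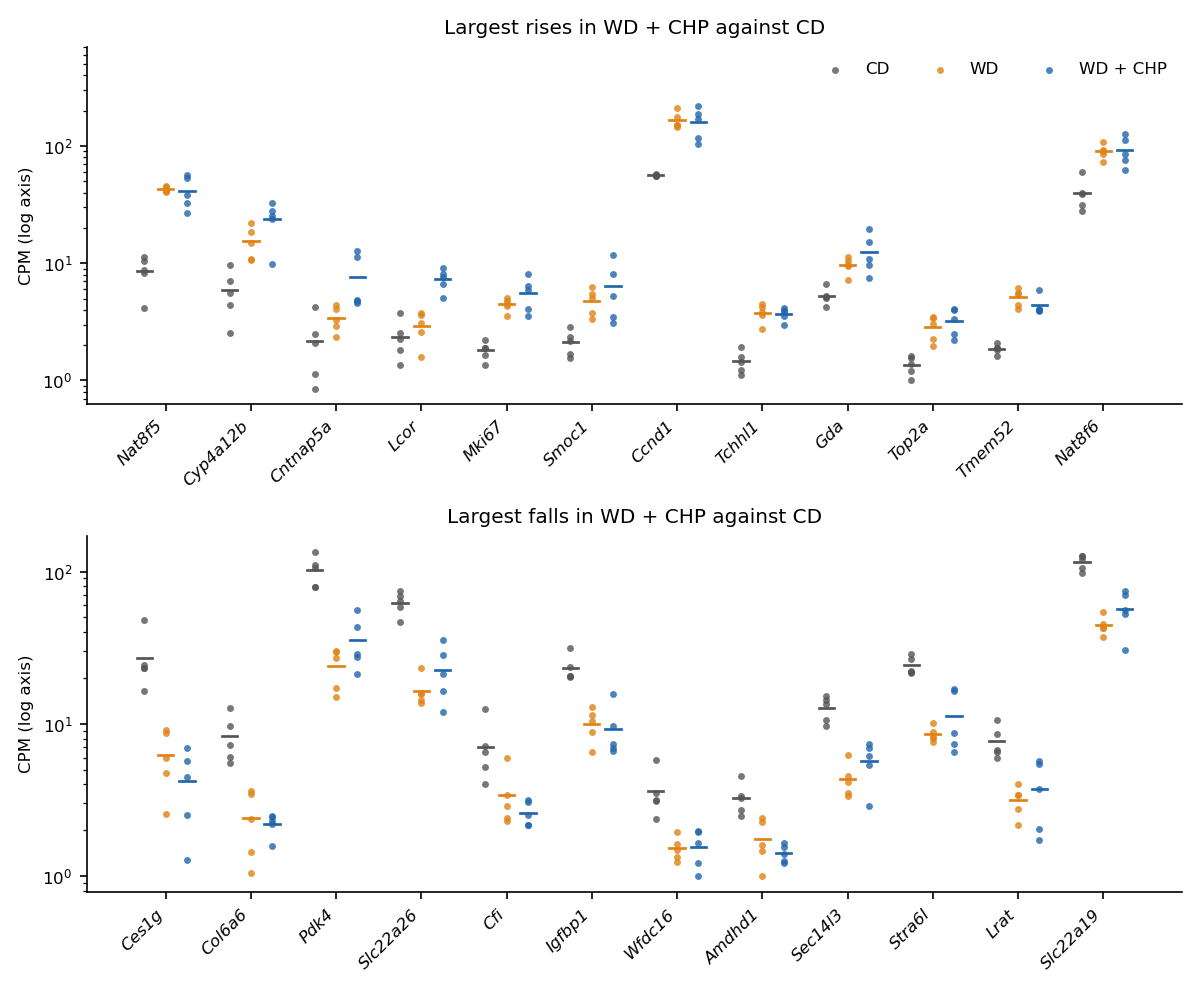
CPM (log axis) of the 12 largest rises (top) and 12 largest falls (bottom) in WD + CHP against CD. Each point is 1 library, bars are group means, and WD is shown for reference. No CD value overlaps a WD + CHP value, as the choice of these genes required, and the WD libraries of *Lcor* lie with its CD libraries.

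The smallest adjusted p of the 101 genes chosen by rule was that of *Scd2*, a desaturase that makes monounsaturated fatty acids. It was at 59.9, 60.1, 62.1, 56.9 and 58.1 CPM in CD and 98.0, 93.6, 92.2, 91.7 and 109 in WD + CHP. Both groups were tight and far apart, at a fold change of 1.63 (log2 0.71 ± 0.050, adjusted p = 1.51e-06), and WD stood at 104 ± 5.32 CPM.

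Genes were then grouped into 38 lists of pathways and cell types. Against 6.25% of all genes tested that rose and 5.84% that fell, rises prevailed among genes of the unfolded protein response and heat shock (8 of 29 rose, 0 fell), of glucose and fructose handling (8 of 30 rose, 1 fell), of the loop and distal nephron (9 of 35 rose, 1 fell), of tubular injury (6 of 24 rose, 0 fell) and of the circadian clock (4 of 19 rose, 0 fell). Their median log2 fold changes were 0.23, 0.14, 0.037, 0.19 and 0.26, beside -0.0050 over all genes. Rises also prevailed among androgen-dependent tubule genes (3 of 14 rose, 0 fell), genes of metallothioneins and zinc (3 of 12 rose, 1 fell) and chemokines (4 of 27 rose, 0 fell). Lists of lipid metabolism and of transport held genes that moved either way. None of the 23 macrophage, 20 T, B and plasma cell, 10 MHC class II, 21 immediate early, 5 red blood cell, 2 skeletal muscle and 1 adrenal genes tested passed with edgeR, DESeq2 or limma-voom, and 4, 2, 2, 2, 0, 0 and 1 of them had an unadjusted p under 0.05. Leaving out WD + CHP replicate 5 let 1 macrophage gene pass, leaving out WD + CHP replicate 1 let 1 immediate early gene and 1 of the T, B and plasma cell genes pass, and leaving out CD replicate 4 let 1 of the latter pass. With no filter, with the replicate block and with length and GC offsets and the block, 1 of the T, B and plasma cell genes was higher, and in both fits with the block 1 immediate early gene was lower.

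**Figure D3:**
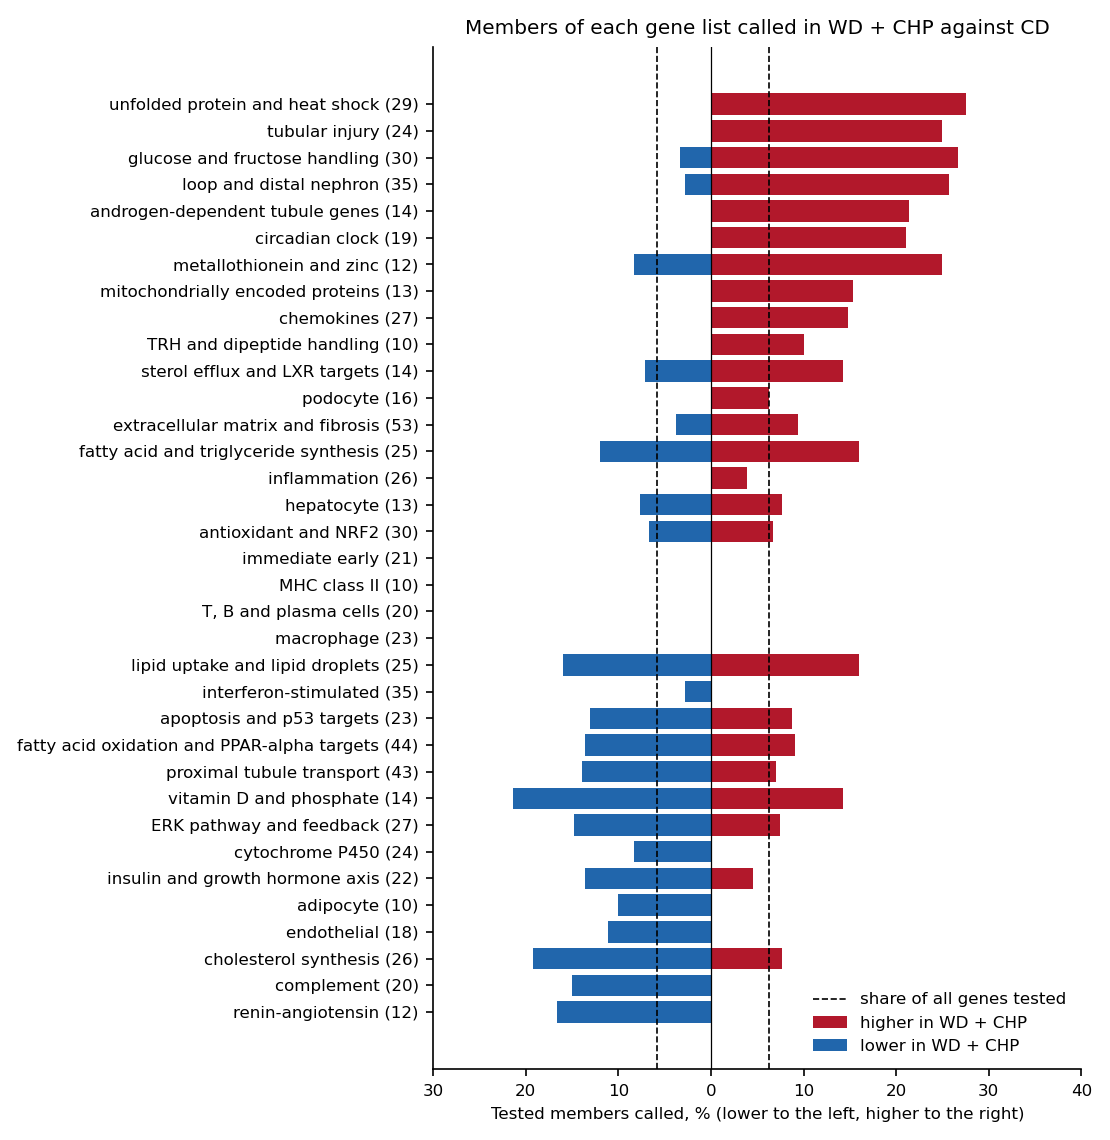
Percentage of tested members of each gene list that passed the test in WD + CHP against CD, higher to the right (red) and lower to the left (blue), for lists with 10 or more tested members (number in brackets). Dashed lines mark the share of all genes tested, 6.25% higher and 5.84% lower. Genes of the unfolded protein response and heat shock (8 of 29 higher) reach furthest to the right.

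Chaperones of the endoplasmic reticulum fold secreted and membrane proteins, and the unfolded protein response raises them when that load grows. *Hspa5*, which encodes the chaperone BiP, was at 371, 446, 375, 547 and 348 CPM in CD and 529, 778, 661, 703 and 506 in WD + CHP (log2 0.61 ± 0.13, adjusted p = 0.00718). CD replicate 4 lay within the WD + CHP range and the other CD libraries below it. *Creld2* rose from 20.3 ± 3.93 to 34.6 ± 7.81 CPM (log2 0.77, adjusted p = 0.00369) and *Sdf2l1* from 5.90 ± 0.922 to 10.1 ± 2.75 CPM (log2 0.78, adjusted p = 0.0074). Both act in the endoplasmic reticulum. *Dnajb11* (log2 0.33), *Hsp90b1* (log2 0.31) and *Canx* (log2 0.16) of the same compartment, and the cytosolic *Hspa8* (log2 0.43) and *Hsp90aa1* (log2 0.38), passed at adjusted p-values of 0.00968 to 0.0487. The list's median was 0.23, and 25 of 29 members lay above 0. WD was between the other groups for *Hspa5* (549 ± 54.5 CPM), *Creld2* (28.4 ± 3.27) and *Sdf2l1* (8.48 ± 1.35). The genes passing were 5 higher and 0 lower with total count scaling or the 2 groups alone or on omission of WD + CHP replicate 3 and 4 and 0 on omission of CD replicate 1 or 5 or WD + CHP replicate 4. They were 15 higher and 0 lower on omission of CD replicate 4 and 13 and 0 on omission of WD + CHP replicate 1 or 5. They were 4 higher and 1 lower on omission of WD + CHP replicate 2. The call of *Hsp90b1* was lost without CD replicate 1 or 5 or WD + CHP replicate 2 or 4 and with the 2 groups alone (adjusted p up to 0.0785). The call of *Canx* was lost without CD replicate 1 or 5 or WD + CHP replicate 2, 3 or 4 and in 5 of 10 other settings (adjusted p up to 0.111). The call of *Hspa8* was lost without any library other than CD replicate 4 or WD + CHP replicate 1 or 5 and with total count scaling or the 2 groups alone (adjusted p up to 0.09). The call of *Hsp90aa1* was lost without CD replicate 1, 2 or 5 or WD + CHP replicate 2, 3 or 4 and in 4 of 10 other settings (adjusted p up to 0.137).

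Promoters of 6 of these genes are shown for a known element of the unfolded protein response, CCAAT and CCACG with 9 bases between them, which the first 4 hold and *Sdf2l1* and *Dnajb11* do not. The sequences are the 250 bases before the RefSeq start (GRCm38.p6), 5′ to 3′ on the gene's strand, with this paired element in capitals, and both strands were searched.
Hspa5 (chr2:34771840-34772089, plus strand): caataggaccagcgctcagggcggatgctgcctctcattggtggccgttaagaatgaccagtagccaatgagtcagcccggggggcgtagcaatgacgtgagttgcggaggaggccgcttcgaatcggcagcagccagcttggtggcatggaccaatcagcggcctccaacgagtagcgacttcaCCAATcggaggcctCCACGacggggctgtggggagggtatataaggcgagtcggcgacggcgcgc
Creld2 (chr15:88819396-88819645, plus strand): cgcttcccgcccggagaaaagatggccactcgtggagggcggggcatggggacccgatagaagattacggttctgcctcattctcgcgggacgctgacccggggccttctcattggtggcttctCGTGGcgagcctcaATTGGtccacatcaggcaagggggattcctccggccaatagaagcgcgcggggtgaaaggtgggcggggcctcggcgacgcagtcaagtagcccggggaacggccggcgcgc
Hsp90b1 (chr10:86705445-86705694, minus strand): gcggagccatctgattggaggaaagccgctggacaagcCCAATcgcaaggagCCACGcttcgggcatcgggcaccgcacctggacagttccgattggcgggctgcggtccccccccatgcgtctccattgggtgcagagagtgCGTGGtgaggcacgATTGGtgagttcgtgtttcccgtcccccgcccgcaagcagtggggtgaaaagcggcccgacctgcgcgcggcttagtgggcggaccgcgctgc
Canx (chr11:50325674-50325923, minus strand): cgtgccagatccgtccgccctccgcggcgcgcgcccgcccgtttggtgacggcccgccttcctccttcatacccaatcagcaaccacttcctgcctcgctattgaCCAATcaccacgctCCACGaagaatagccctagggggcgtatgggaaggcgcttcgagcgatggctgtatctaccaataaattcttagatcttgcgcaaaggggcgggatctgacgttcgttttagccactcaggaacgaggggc
Sdf2l1 (chr16:17132384-17132633, minus strand): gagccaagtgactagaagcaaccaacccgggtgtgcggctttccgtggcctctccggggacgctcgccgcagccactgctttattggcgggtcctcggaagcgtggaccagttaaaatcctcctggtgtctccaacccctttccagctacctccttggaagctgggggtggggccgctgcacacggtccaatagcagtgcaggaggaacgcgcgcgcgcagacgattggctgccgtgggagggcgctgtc
Dnajb11 (chr16:22857595-22857844, plus strand): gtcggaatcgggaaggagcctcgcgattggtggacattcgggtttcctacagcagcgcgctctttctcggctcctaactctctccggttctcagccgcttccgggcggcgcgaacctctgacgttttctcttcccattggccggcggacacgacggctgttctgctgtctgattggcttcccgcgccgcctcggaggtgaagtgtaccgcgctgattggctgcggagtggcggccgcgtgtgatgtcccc

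The paired element was present in 37 of 32851 promoters of this length (0.113%) and in 6 of the 25 genes of this list with a promoter in the table. The former counts single promoters and the latter genes with a match at any listed start, so the shares are not of like units. Of the 8 genes that rose, 6 were in the table and 4 of them held it: *Hspa5*, *Hsp90b1* with 2 matches, *Creld2* and *Canx*. The 2 list members that held it and did not pass were *Pdia6* (log2 0.19, adjusted p = 0.0843) and *Calr* (log2 0.062, adjusted p = 0.518). The separate words CCAAT and CCACG were in 33.8% and 28.3% of all promoters. The element was chosen after the values were seen, and a match is a description of the letters.

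Among clock genes, *Per2*, a repressor of the core clock, was at 13.9, 15.8, 12.4, 34.1 and 25.8 CPM in CD and 27.7, 31.1, 48.7, 63.0 and 42.2 in WD + CHP (log2 1.06 ± 0.26, adjusted p = 0.0145). CD libraries formed a low set of 3 and a higher pair, replicates 4 and 5, and WD + CHP replicates 1 and 2 lay in the range of that pair. *Ciart*, another repressor of the clock, was at 2.15, 2.65, 2.01, 4.67 and 4.12 CPM in CD and 3.03, 5.97, 13.8, 8.79 and 7.47 in WD + CHP (log2 1.32 ± 0.32, adjusted p = 0.0141). Again CD replicates 4 and 5 were the highest of their group, and only WD + CHP replicate 1 lay within the CD range. The output factor *Hlf* rose from 127 ± 16.2 to 169 ± 24.2 CPM (log2 0.41, adjusted p = 0.0101) and the activator *Clock* by 0.28 (log2, adjusted p = 0.0182). The list's median was 0.26 with 15 of 19 members above 0, and members ranged from -1.30 to 1.32. WD stood at 47.6 ± 7.47 CPM for *Per2* and 7.08 ± 1.55 for *Ciart*. The genes passing were 4 higher and 1 lower with total count scaling, the 2 groups alone or the replicate block or on omission of CD replicate 1 or 5 and 4 and 2 with no filter. They were 3 higher and 1 lower with length and GC offsets with the block and 6 and 1 on omission of CD replicate 4. They were 7 higher and 0 lower on omission of WD + CHP replicate 1. The call of *Clock* was lost without WD + CHP replicate 4 and with length and GC offsets with the block (adjusted p up to 0.068).

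The promoter of *Ciart* is shown for its E-boxes, the sites at which the clock's activators bind (CACGTG, a palindrome, in capitals; the 250 bases before the start, as above).
Ciart (chr3:95882229-95882478, minus strand): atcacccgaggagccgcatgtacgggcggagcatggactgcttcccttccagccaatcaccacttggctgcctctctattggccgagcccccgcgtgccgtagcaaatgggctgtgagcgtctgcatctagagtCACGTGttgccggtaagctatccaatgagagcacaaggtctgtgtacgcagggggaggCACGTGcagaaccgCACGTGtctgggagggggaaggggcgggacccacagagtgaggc

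It held 3 E-boxes, whereas *Hlf* and *Clock*, also in the table, held none in this window and *Per2* had no entry. CACGTG was in 6.02% of all promoters and in those of 5 of 16 clock genes, and TTATGNAA, a word bound by output factors of the clock, in 3.07% and in 2 of 16.

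In glucose handling, *Txnip*, which restrains glucose uptake and follows glucose and insulin, was at 457, 498, 444, 376 and 520.0 CPM in CD and 238, 283, 215, 247 and 247 in WD + CHP. The groups were far apart (log2 -0.90 ± 0.095, adjusted p = 9.96e-05), and WD stood at 243 ± 31.4 CPM. Genes that rose were of several steps, among them the glucose and mannose carriers *Slc5a2* (log2 0.30, adjusted p = 0.0226) and *Slc5a10* (0.45, 0.011), *Fbp1* of gluconeogenesis (0.24, 0.011), *Pklr*, *Gapdh* and *Ldhb* of glycolysis (0.37, 0.20 and 0.17), and *Glud1*, which turns glutamate into an intermediate of the citric acid cycle (0.26, adjusted p = 0.00516). Between 7 and 11 members passed when any one library was left out. The call of *Slc5a2* was lost without WD + CHP replicate 4 (adjusted p = 0.0627). The call of *Ldhb* was lost without CD replicate 1 or WD + CHP replicate 3 or 4 and with total count scaling or the 2 groups alone (adjusted p up to 0.0855). In the insulin and growth hormone list, 1 of 22 rose and 3 fell. *Irs2*, an insulin receptor substrate that insulin represses, was at 168, 106, 42.7, 51.1 and 57.6 CPM in CD and 30.4, 47.7, 30.2, 32.5 and 35.8 in WD + CHP (log2 -1.27 ± 0.29, adjusted p = 0.0107). The CD libraries covered a wide range, and WD + CHP replicate 2 lay above CD replicate 3. *Pik3r1*, a regulatory subunit of PI3-kinase, rose from 45.1 ± 2.41 to 56.2 ± 2.27 CPM (log2 0.32, adjusted p = 0.00145), and *Igf1r*, the receptor of insulin-like growth factor 1, fell beside *Igfbp1* and *Irs2* (log2 -0.18, adjusted p = 0.04). The genes passing in this list were 1 higher and 6 lower with total count scaling and 2 and 2 with the 2 groups alone. The call of *Igf1r* was lost without any library other than WD + CHP replicate 5 and with no filter or the 2 groups alone (adjusted p up to 0.139).

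**Figure D4:**
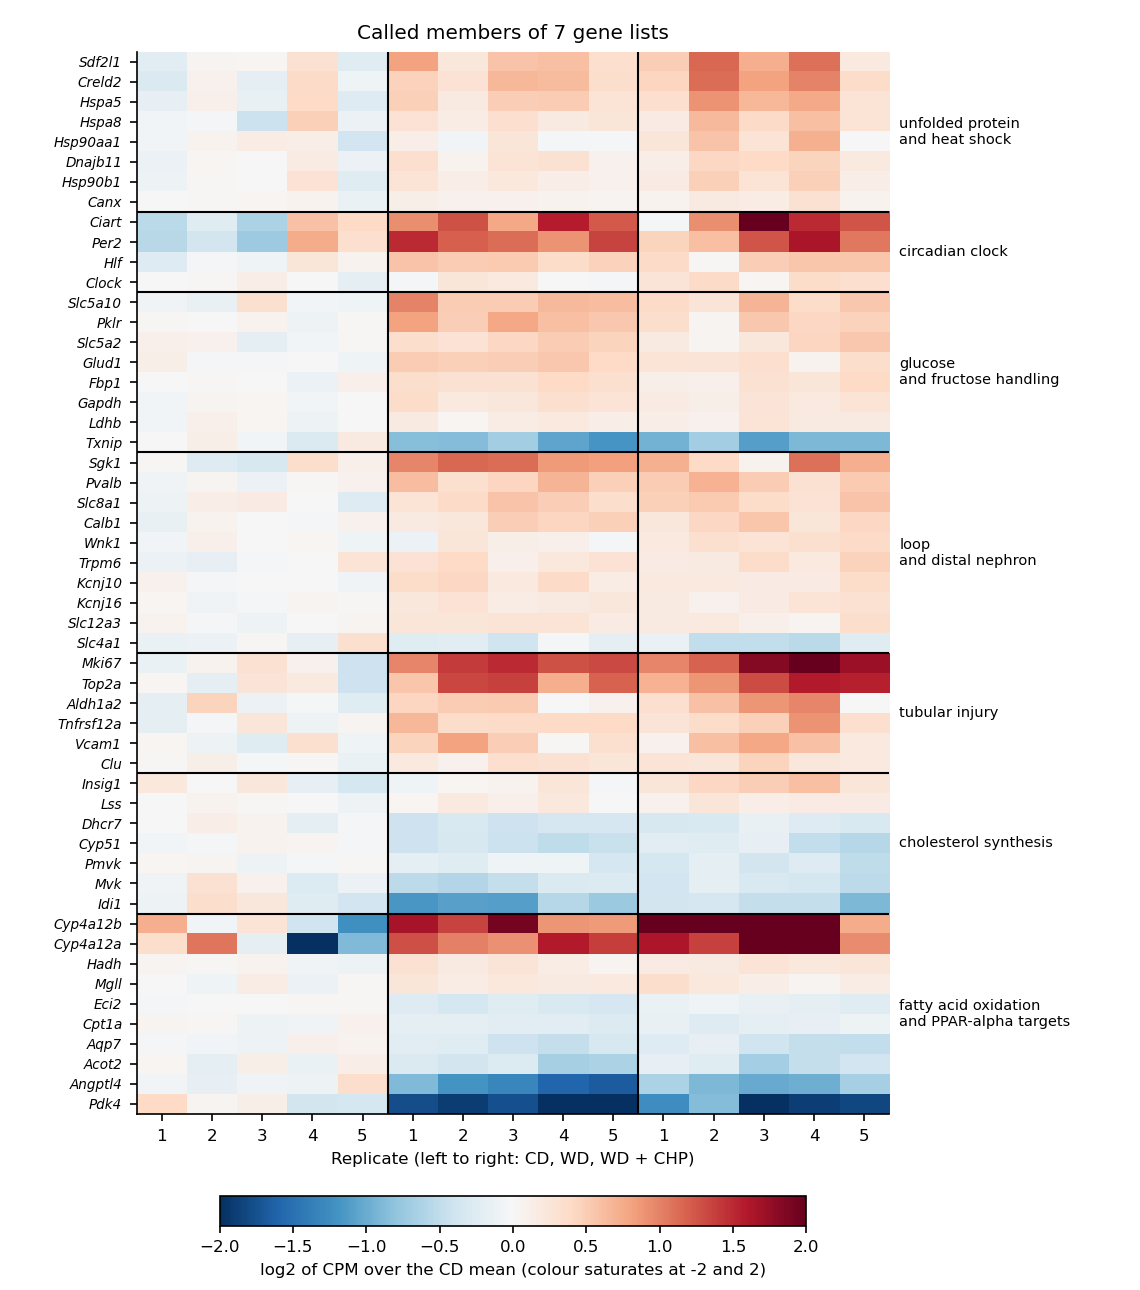
Log2 ratio of CPM to the CD mean in every kidney library for the members of 7 gene lists that passed the test in WD + CHP against CD, 1 gene left out. Columns are libraries by replicate, rows are genes ordered by fold change within each list. Unfolded protein and heat shock, clock, glucose and distal nephron genes are mostly red in WD + CHP, *Txnip*, *Angptl4* and *Pdk4* are blue, and the unfolded protein and heat shock genes are palest in WD + CHP replicates 1 and 5.

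Lipid genes moved in both directions. Of 25 genes of fatty acid and triglyceride synthesis, 4 rose and 3 fell. Beside *Scd2*, *Mogat1* (log2 0.46), *Srebf1* (0.31) and *Acaca* (0.25) rose, and the desaturases of polyunsaturated fatty acids fell, *Fads1* from 141 ± 12.3 to 96.1 ± 10.4 CPM (log2 -0.55, adjusted p = 0.00104) and *Fads2* from 185 ± 12.9 to 158 ± 5.50 CPM (log2 -0.23, adjusted p = 0.00484), together with the elongase *Elovl6* (log2 -0.41). The genes passing were 3 higher and 3 lower with total count scaling or the 2 groups alone or on omission of WD + CHP replicate 4 or 5. The call of *Acaca* was lost without CD replicate 5 or WD + CHP replicate 1, 4 or 5 and in 5 of 10 other settings (adjusted p up to 0.084). The call of *Elovl6* was lost without CD replicate 5 or WD + CHP replicate 3 (adjusted p up to 0.0587). Of 44 genes of fatty acid oxidation and PPAR-alpha targets, 4 rose and 6 fell. *Angptl4*, an inhibitor of lipoprotein lipase, was at 102, 94.3, 101, 98.7 and 135 CPM in CD and 68.5, 57.1, 52.7, 54.1 and 67.3 in WD + CHP (log2 -0.82 ± 0.13, adjusted p = 0.00132), with WD lower still at 43.1 ± 9.66 CPM. *Cpt1a*, the gate of mitochondrial fatty acid entry (log2 -0.17), *Aqp7* (-0.35), *Acot2* (-0.38) and *Eci2* (-0.16) also fell, and beside the *Cyp4a12* genes *Hadh* (0.22) and *Mgll* (0.19) rose. The genes of oxidation passing were 6 higher and 6 lower with RLE size factors, 10 counts in every library or length and GC offsets and 3 and 8 with total count scaling. They were 7 higher and 7 lower with the replicate block and 8 and 7 with length and GC offsets with the block. They were 5 higher and 5 lower on omission of CD replicate 3 or WD + CHP replicate 4 and 4 and 4 on omission of CD replicate 5. The call of *Cpt1a* was lost without CD replicate 5 (adjusted p = 0.0577). The call of *Acot2* was lost without CD replicate 3 or 5 or WD + CHP replicate 3 or 4 (adjusted p up to 0.0649). The call of *Mgll* was lost without CD replicate 1, 2, 4 or 5 or WD + CHP replicate 1 or 2 and with total count scaling or the 2 groups alone (adjusted p up to 0.142). The medians of the synthesis and oxidation lists were -0.0061 and -0.045.

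In lipid uptake and droplets, 4 of 25 rose and 4 fell. The lipases *Pnpla2* (from 175 ± 23.3 to 125 ± 14.6 CPM, log2 -0.49, adjusted p = 0.00188) and *Lipe* (log2 -0.24, adjusted p = 0.023), which release fatty acids from droplets, fell, as did the fatty acid carriers *Slc27a1* (log2 -0.49, adjusted p = 0.00176) and *Slc27a2* (-0.15). The droplet proteins *Plin2* (0.26), *Plin3* (0.15) and *Fitm1* (0.38) and the lipoprotein receptor *Vldlr* (0.28, adjusted p = 0.00516) rose. The genes passing were 2 higher and 6 lower with total count scaling and 2 and 2 on omission of CD replicate 5 or WD + CHP replicate 3 or 4. The call of *Lipe* was lost without CD replicate 3 or 5 or WD + CHP replicate 2, 3 or 4 and in 3 of 10 other settings (adjusted p up to 0.0699). The call of *Slc27a2* was lost without any library other than CD replicate 1 or WD + CHP replicate 2 and in 5 of 10 other settings (adjusted p up to 0.162). The call of *Plin2* was lost without CD replicate 1 or 5 or WD + CHP replicate 3 or 4 and with total count scaling (adjusted p up to 0.0789). The call of *Plin3* was lost without CD replicate 5 or WD + CHP replicate 3, 4 or 5 and with total count scaling or no filter (adjusted p up to 0.125). Summed adipocyte markers stood at 45.6 to 74.9 CPM in CD and 45.2 to 61.7 in WD + CHP (exact permutation p = 0.587), and neither *Fabp4* (log2 -0.022, adjusted p = 0.924) nor *Cidea* (-0.010, 0.996) passed.

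Of 26 genes of cholesterol synthesis, 5 fell and 2 rose. *Cyp51*, the lanosterol demethylase, was at 321, 325, 350.2, 348 and 329 CPM in CD and 287, 282, 298, 238 and 225 in WD + CHP, without overlap (log2 -0.33 ± 0.067, adjusted p = 0.00523). *Pmvk* (-0.33), *Mvk* (-0.34), *Idi1* (-0.49) and *Dhcr7* (-0.26) of the same pathway fell, whereas *Lss* (0.16) and *Insig1*, a brake on the pathway (0.40), rose. The genes passing were 1 higher and 9 lower with total count scaling and 3 and 3 on omission of CD replicate 2. They were 1 higher and 3 lower on omission of WD + CHP replicate 3 and 0 and 3 on omission of WD + CHP replicate 4. They were 4 higher and 3 lower on omission of WD + CHP replicate 5. The call of *Mvk* was lost without CD replicate 2 or 3 or WD + CHP replicate 1, 3, 4 or 5 and with length and GC offsets or length and GC offsets with the block (adjusted p up to 0.0831). The call of *Idi1* was lost without CD replicate 1, 2 or 3 or WD + CHP replicate 3, 4 or 5 (adjusted p up to 0.0945). The call of *Lss* was lost without any library other than CD replicate 2 or WD + CHP replicate 1 and in 4 of 10 other settings (adjusted p up to 0.141). The call of *Insig1* was lost without WD + CHP replicate 4 (adjusted p = 0.0536). Of 14 genes of sterol efflux, the exporters *Abca1* (from 28.4 ± 6.94 to 44.5 ± 7.67 CPM, log2 0.65, adjusted p = 0.0104) and *Abcg1* (from 6.47 ± 1.39 to 9.24 ± 0.810 CPM, log2 0.51, adjusted p = 0.0196) rose and the receptor *Nr1h2* fell (log2 -0.14, adjusted p = 0.0271), the last call being lost without CD replicate 2 (adjusted p = 0.0821), CD replicate 5 (0.0972), WD + CHP replicate 1 (0.0535), WD + CHP replicate 2 (0.0626) or WD + CHP replicate 4 (0.07), and with no filter, length and GC offsets or length and GC offsets with the block (adjusted p up to 0.131). For *Abca1*, WD stood closer to CD, at 32.4 ± 4.89 CPM, and for *Abcg1* above both, at 11.2 ± 1.48 CPM. The genes of sterol efflux passing were 2 higher and 4 lower with total count scaling and 2 and 2 on omission of CD replicate 3 or 4.

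Of 35 genes of the loop of Henle and distal nephron, 9 rose and 1 fell. *Pvalb*, a calcium-binding protein of that segment, was at 15.8, 17.2, 15.2, 16.9 and 17.5 CPM in CD and 23.6, 26.7, 23.4, 20.4 and 23.6 in WD + CHP (log2 0.51 ± 0.074, adjusted p = 0.000839). *Slc8a1*, the sodium-calcium exchanger, rose from 119 ± 13.9 to 162 ± 13.0 CPM (log2 0.45, adjusted p = 0.00213) and *Calb1*, calbindin, from 188 ± 12.0 to 244 ± 23.1 CPM (log2 0.37, adjusted p = 0.00448). In none of these 3 did the groups overlap. The sodium chloride cotransporter *Slc12a3* (log2 0.18), its regulator *Wnk1* (0.30), the aldosterone-induced kinase *Sgk1* (0.64), the potassium channels *Kcnj10* (0.22) and *Kcnj16* (0.20) and the magnesium channel *Trpm6* (0.28) rose too. *Slc4a1*, the anion exchanger of intercalated cells in the collecting duct, fell (-0.37). Summed markers of the loop and distal nephron were at 7065 to 7573 CPM in CD and 7396 to 8311 in WD + CHP (exact permutation p = 0.0476), and between 8 and 11 members passed without any one library. Scaling by total count alone left 6 that rose and 2 that fell and turned the list's median from 0.037 to -0.014. The call of *Slc12a3* was lost without CD replicate 2 or 3 or WD + CHP replicate 2 or 5 and in 3 of 10 other settings (adjusted p up to 0.123). The call of *Kcnj10* was lost with total count scaling (adjusted p = 0.0545). The call of *Trpm6* was lost without CD replicate 1, 2 or 3 or WD + CHP replicate 3 or 5 and with total count scaling or the 2 groups alone (adjusted p up to 0.0769). The call of *Slc4a1* was lost without CD replicate 5 or WD + CHP replicate 2, 3 or 4 (adjusted p up to 0.0701).

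Of 43 genes of proximal tubule transport, 3 rose and 6 fell, and their summed level did not separate the groups (24460 to 25990 CPM in CD, 24750 to 27090 in WD + CHP, exact permutation p = 0.103). The bicarbonate cotransporter *Slc4a4* rose from 923 ± 54.2 to 1170 ± 114 CPM (log2 0.34, adjusted p = 0.0074) and the dicarboxylate carrier *Slc13a3* by 0.28 (log2). Among those that fell were the amino acid carriers *Slc7a7* (log2 -0.33, adjusted p = 0.0145), *Slc6a18* (-0.31) and *Slc3a1* (-0.14), the sulphate carrier *Slc13a1* (-0.38) and the protein receptor *Cubn* (-0.21). The genes passing were 2 higher and 8 lower with total count scaling and 5 and 5 with no filter or on omission of WD + CHP replicate 2. They were 3 higher and 3 lower with the 2 groups alone and 4 and 4 with length and GC offsets with the block or on omission of CD replicate 2. They were 5 higher and 3 lower on omission of CD replicate 1 and 3 and 2 on omission of CD replicate 4 or WD + CHP replicate 3 or 4. They were 2 higher and 2 lower on omission of CD replicate 5. The call of *Slc13a3* was lost without CD replicate 2 or 5 or WD + CHP replicate 5 and with total count scaling (adjusted p up to 0.0568). The call of *Slc7a7* was lost without CD replicate 5 (adjusted p = 0.0507). The call of *Slc6a18* was lost without CD replicate 3 or 4 or WD + CHP replicate 3 or 4 and with the 2 groups alone or length and GC offsets with the block (adjusted p up to 0.0857). The call of *Slc3a1* was lost without any library other than WD + CHP replicate 1 or 2 and in 3 of 10 other settings (adjusted p up to 0.103). The call of *Slc13a1* was lost without CD replicate 1, 4 or 5 or WD + CHP replicate 3 or 4 and with the 2 groups alone (adjusted p up to 0.0862). The call of *Cubn* was lost without any library other than CD replicate 3 or WD + CHP replicate 5 and with RLE size factors or no filter (adjusted p up to 0.13). *Slc15a2*, a carrier of di- and tripeptides, did not pass (from 97.3 ± 31.7 to 78.6 ± 17.9 CPM, log2 -0.31, 95% interval -0.74 to 0.12, adjusted p = 0.352).

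Of 14 genes of vitamin D and phosphate, 2 rose and 3 fell. The vitamin D receptor *Vdr* was at 509, 533, 575, 473 and 462 CPM in CD and 428, 379.8, 376, 372 and 431 in WD + CHP, without overlap (log2 -0.36 ± 0.062, adjusted p = 0.00201). *Cyp24a1*, which breaks down active vitamin D and is a target of its receptor, was at 268, 539.8, 553, 300.5 and 356 CPM in CD and 235, 216, 76.1, 118 and 284 in WD + CHP (log2 -1.12 ± 0.32, adjusted p = 0.0306). Only WD + CHP replicate 5 reached into the CD range, and the call was lost without CD replicate 2 (adjusted p = 0.0717), CD replicate 3 (0.0703), CD replicate 5 (0.0526), WD + CHP replicate 3 (0.0615) or WD + CHP replicate 4 (0.0842). The parathyroid hormone receptor *Pth1r* rose (log2 0.21, adjusted p = 0.0201), a call lost without WD + CHP replicate 3 (adjusted p = 0.0544) or WD + CHP replicate 4 (0.0514). The phosphate carrier *Slc20a1* rose (log2 0.38, adjusted p = 0.0399) and *Fgfr1*, a receptor of fibroblast growth factors, fell (log2 -0.17, adjusted p = 0.0229), a call lost without CD replicate 1 (adjusted p = 0.0547), CD replicate 5 (0.0681), WD + CHP replicate 1 (0.0516), WD + CHP replicate 4 (0.0693) or WD + CHP replicate 5 (0.0533), and with length and GC offsets or length and GC offsets with the block (adjusted p up to 0.0614). The call of *Slc20a1* was lost without CD replicate 4 or 5 or WD + CHP replicate 2, 3 or 4 (adjusted p up to 0.101). The genes passing in this list were 2 higher and 5 lower with total count scaling and 3 and 3 with no filter or on omission of CD replicate 1. They were 2 higher and 2 lower with length and GC offsets or length and GC offsets with the block or on omission of CD replicate 3 or WD + CHP replicate 5 and 3 and 2 on omission of CD replicate 2. They were 1 higher and 1 lower on omission of CD replicate 5 and 4 and 2 on omission of WD + CHP replicate 1. They were 0 higher and 2 lower on omission of WD + CHP replicate 3 and 0 and 1 on omission of WD + CHP replicate 4. In the renin-angiotensin list, 2 of 12 genes tested were lower and 0 higher, among them the angiotensin receptor *Agtr1a* (log2 -0.20, adjusted p = 0.0376). The call of *Agtr1a* was lost when any library other than CD replicate 3 or WD + CHP replicate 1 was left out (adjusted p up to 0.102), and with no filter or length and GC offsets (adjusted p up to 0.0558). The genes passing in this list were 1 higher and 2 lower with DESeq2, the replicate block or length and GC offsets with the block or on omission of CD replicate 3 and 0 and 0 with no filter or on omission of CD replicate 1, 4 or 5 or WD + CHP replicate 3 or 4. They were 0 higher and 1 lower with the 2 groups alone or on omission of WD + CHP replicate 5 and 1 and 1 with length and GC offsets or on omission of WD + CHP replicate 1. They were 1 higher and 0 lower on omission of CD replicate 2 or WD + CHP replicate 2.

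Of 24 genes of tubular injury, 6 rose and 0 fell, among them *Mki67* and *Top2a*. *Clu*, clusterin, was at 197, 209, 188, 196 and 177 CPM in CD and 234, 229, 264, 225 and 222 in WD + CHP, without overlap (log2 0.28 ± 0.058, adjusted p = 0.00618). *Tnfrsf12a*, the receptor of TWEAK, rose by 0.49 (log2, adjusted p = 0.0105) and *Aldh1a2* by 0.60 (adjusted p = 0.0428). *Vcam1*, an adhesion molecule for leukocytes, was higher (from 8.71 ± 1.31 to 12.1 ± 2.36 CPM, log2 0.47, adjusted p = 0.0459), and the call was lost when any library other than CD replicate 4 or WD + CHP replicate 1 or 5 was left out (adjusted p up to 0.118), and with limma-voom, total count scaling, the replicate block, length and GC offsets or length and GC offsets with the block (adjusted p up to 0.0884). The call of *Aldh1a2* was lost without any library other than CD replicate 2 or WD + CHP replicate 1 or 5 and with limma-voom or the 2 groups alone (adjusted p up to 0.121). *Havcr1* and *Lcn2*, used as markers of tubular damage, did not pass. *Havcr1*, which encodes KIM-1, was at 2.25, 1.79, 2.93, 1.42 and 1.17 CPM in CD and 2.12, 2.49, 4.87, 5.93 and 1.05 in WD + CHP (log2 0.78, 95% interval -0.0048 to 1.57, adjusted p = 0.185), with WD + CHP replicates 3 and 4 above the CD range and the others within or below it. *Lcn2*, which encodes NGAL, was at 2.62, 2.08, 3.56, 2.04 and 2.62 CPM in CD and 3.11, 3.04, 3.62, 3.41 and 3.33 in WD + CHP (log2 0.35, 95% interval 0.050 to 0.66, adjusted p = 0.12), where the interval excludes 0 but the adjusted p does not pass. On omission of CD replicate 3 *Lcn2* passed (adjusted p = 0.0203).

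Of 53 matrix genes, 5 rose and 2 fell (13.2% passing, near the 12.1% of all genes tested), at a median of 0.090. *Col1a1*, the main chain of fibrillar collagen I, was at 11.1, 10.6, 11.4, 13.0 and 8.04 CPM in CD and 15.5, 15.7, 22.5, 17.0 and 10.6 in WD + CHP (log2 0.58 ± 0.16, adjusted p = 0.0286). WD + CHP replicate 5 lay within the CD range and the other 4 above it, and the call was lost without CD replicate 5 (adjusted p = 0.0714), WD + CHP replicate 3 (0.0797) or WD + CHP replicate 4 (0.0632). *Col3a1* did not pass (log2 0.20, 95% interval -0.091 to 0.49, adjusted p = 0.381), nor did the protease inhibitor *Timp1*, which was at few counts (log2 0.35, 95% interval -0.15 to 0.86, adjusted p = 0.373). *Timp3* (log2 0.42, adjusted p = 0.00448), *Col12a1* (0.42, 0.00424), *Thbs2* (0.44) and *Tgfbr1* (0.15) rose. *Col5a2*, a chain of collagen V, was at 33.5, 27.0, 26.5, 26.3 and 34.5 CPM in CD and 17.9, 19.1, 14.8, 13.8 and 12.0 in WD + CHP (log2 -0.93 ± 0.12, adjusted p = 0.000347), and *Thbs1* fell as well (-0.35). Between 5 and 11 matrix genes passed when any one library was left out. The matrix genes passing were 4 higher and 3 lower with total count scaling and 9 and 2 on omission of CD replicate 4. They were 8 higher and 3 lower on omission of WD + CHP replicate 5. The call of *Tgfbr1* was lost without CD replicate 3 or 5 or WD + CHP replicate 2, 4 or 5 and in 5 of 10 other settings (adjusted p up to 0.157).

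**Figure D5:**
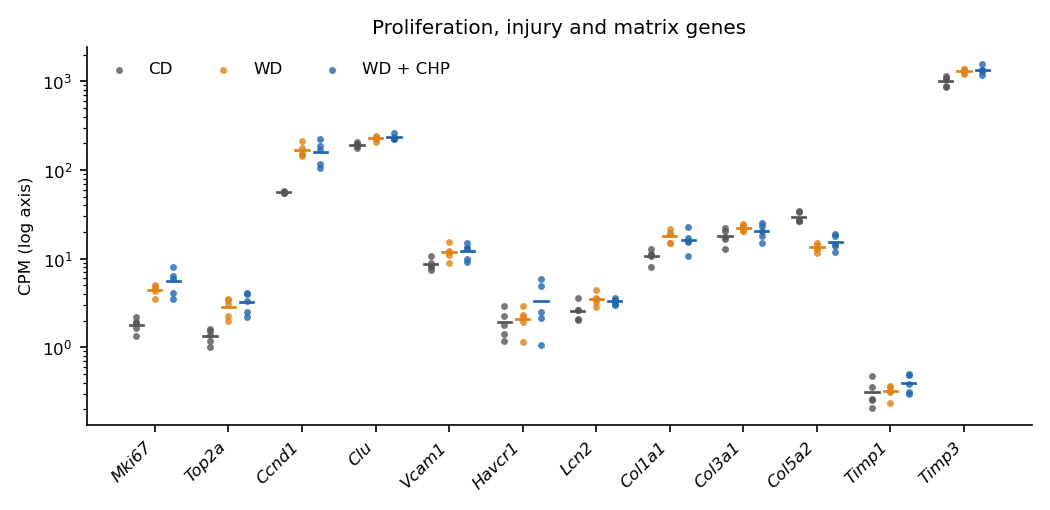
CPM (log axis) of proliferation, injury and matrix genes in CD, WD and WD + CHP. Points are libraries and bars are group means. *Mki67*, *Top2a*, *Ccnd1*, *Clu* and *Timp3* lie higher and *Col5a2* lower in every WD + CHP library than in any CD library, whereas *Havcr1*, *Lcn2*, *Col3a1* and *Timp1* overlap.

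Of 26 inflammatory genes, *Vcam1* alone passed (0 higher and 1 lower with total count scaling, 1 and 1 on omission of WD + CHP replicate 1), and of 35 interferon-stimulated genes *Ifih1* alone, a sensor of viral RNA that was lower (log2 -0.18, adjusted p = 0.0419). Its call was lost when any library other than CD replicate 2 or 3 was left out (adjusted p up to 0.107), and with no filter, the 2 groups alone or the replicate block (adjusted p up to 0.0836). In the inflammatory and interferon-stimulated lists 3.85% and 2.86% passed, against 12.1% of all genes tested. Of 27 chemokines and receptors, 4 rose and 0 fell (14.8% passing). *Cxcl16* rose from 34.7 ± 1.17 to 39.3 ± 1.77 CPM (log2 0.18, adjusted p = 0.00884). The neutrophil attractant *Cxcl1* was at 0.681, 0.389, 0.523, 0.439 and 0.865 CPM in CD and 1.41, 1.73, 1.00, 4.44 and 0.758 in WD + CHP (log2 1.68 ± 0.43, adjusted p = 0.0182), and WD + CHP replicate 4 was far above the others. The monocyte attractant *Ccl2* was at 0.655, 0.259, 0.262, 0.361 and 0.382 CPM in CD and 0.548, 1.12, 1.75, 1.91 and 0.325 in WD + CHP (log2 1.55 ± 0.41, adjusted p = 0.023), and the call was lost without CD replicate 2 (adjusted p = 0.0503), CD replicate 5 (0.0514), WD + CHP replicate 3 (0.0656) or WD + CHP replicate 4 (0.0726), and with limma-voom or length and GC offsets with the block (adjusted p up to 0.0758). The B cell attractant *Cxcl13*, at 0.025 to 0.181 CPM in CD and 0.131 to 0.356 in WD + CHP, was near the limit of detection (log2 1.5, adjusted p = 0.0441). The call of *Cxcl13* was lost without any library other than CD replicate 4 or WD + CHP replicate 1 and with no filter or length and GC offsets (adjusted p up to 0.104). The chemokine genes passing were 2 higher and 0 lower on omission of CD replicate 2 or WD + CHP replicate 3 or 4 and 4 and 1 on omission of CD replicate 3. Summed macrophage markers were at 223 to 247 CPM in CD and 198 to 259 in WD + CHP (exact permutation p = 0.889), and those of T, B and plasma cells at 93.6 to 144 and 116 to 293 (exact permutation p = 0.127).

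Of 20 complement genes, *Cfi*, *C4b* and *C2* were lower and 0 higher (15% passing, against 12.1% of all genes tested). *Cfi*, the protease that inactivates C3b and C4b, was at 6.55, 5.19, 4.0, 7.17 and 12.4 CPM in CD and 2.51, 2.16, 2.17, 3.08 and 3.14 in WD + CHP, without overlap. *C4b*, which has a close copy, was at 15.3, 10.2, 13.6, 20.9 and 38.8 CPM in CD and 9.35, 8.84, 10.2, 11.5 and 7.28 in WD + CHP (log2 -1.07 ± 0.29, adjusted p = 0.0267), and the call was lost without CD replicate 5 (adjusted p = 0.0762), WD + CHP replicate 2 (0.0528), WD + CHP replicate 3 (0.0523) or WD + CHP replicate 5 (0.0544), and with limma-voom (adjusted p = 0.0535). The complement genes passing were 0 higher and 1 lower on omission of CD replicate 5 or WD + CHP replicate 3 and 2 and 1 on omission of WD + CHP replicate 5. *C2* (log2 -0.32, adjusted p = 0.0382) lost its call when any library other than CD replicate 1 or 3 was left out (adjusted p up to 0.114), and with no filter, the 2 groups alone, length and GC offsets or length and GC offsets with the block (adjusted p up to 0.0737). Complement proteins are also made by hepatocytes, whose summed markers without *Ttr* are given above. Of the hepatocyte markers, *Fgb* was at 2.39 to 7.91 CPM in CD and 1.06 to 1.89 in WD + CHP, and did not pass the edgeR test. *Itih1* was at 5.60 to 7.99 and 3.92 to 5.20 CPM. *Ttr* went the other way (60.4 to 134 and 146 to 234 CPM). These were the 3 of 13 tested markers without overlap, beside 8.34% of all genes. Each had an exact permutation p of 0.00794, which any gene without overlap gives. The other markers overlapped, among them *Alb* (8.98 to 81.4 CPM in CD, 14.9 to 27.8 in WD + CHP). The part of hepatocyte RNA in the lower complement genes was not tested. Of 18 endothelial genes, 11.1% passed, against 12.1% of all genes tested. *Cldn5* (log2 -0.34, adjusted p = 0.00841) and *Pecam1* (-0.18, 0.0339) were lower. The call of *Pecam1* was lost when any library other than CD replicate 3 or WD + CHP replicate 4 was left out (adjusted p up to 0.0954), and with no filter or the 2 groups alone (adjusted p up to 0.0534). The summed endothelial markers did not separate the groups (749 to 907 CPM in CD and 733 to 855 in WD + CHP, exact permutation p = 0.278). Of 16 podocyte genes 1 rose (6.25% passing, against 12.1% of all genes tested), *Clic5* (log2 0.23, adjusted p = 0.0138). The podocyte genes passing were 1 higher and 1 lower with total count scaling or on omission of CD replicate 1 or 3 and 1 and 2 on omission of WD + CHP replicate 5.

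In signalling and stress lists, 2 of 27 ERK genes rose and 4 fell. Beside *Ccnd1*, a target of this pathway, *Egfr* rose (log2 0.18), and the ERK-induced factor *Etv5* (log2 -0.39, adjusted p = 0.00426), the feedback inhibitor *Spred2* (-0.28, 0.00791), *Fgfr1* (-0.17) and *Fgfr2* (-0.31) fell. The ERK genes passing were 1 higher and 4 lower with total count scaling and 3 and 3 on omission of CD replicate 2. They were 1 higher and 2 lower on omission of CD replicate 5 or WD + CHP replicate 4. The call of *Egfr* was lost without CD replicate 3, 4 or 5 or WD + CHP replicate 2, 4 or 5 and in 5 of 10 other settings (adjusted p up to 0.115). The call of *Fgfr1* was lost without CD replicate 1 or 5 or WD + CHP replicate 1, 4 or 5 and with length and GC offsets or length and GC offsets with the block (adjusted p up to 0.0693). The call of *Fgfr2* was lost without CD replicate 2, 3 or 5 or WD + CHP replicate 2, 3 or 4 (adjusted p up to 0.124). Of 23 genes of apoptosis and p53, 3 fell, among them the p53 gene *Trp53* (log2 -0.26, adjusted p = 0.00285), and 2 rose, *Ccnd1* and *Pmaip1* (log2 0.40, adjusted p = 0.0366). The genes of this list passing were 3 higher and 3 lower with DESeq2 or length and GC offsets with the block and 1 and 4 with total count scaling. The call of *Pmaip1* was lost without CD replicate 1, 2 or 3 or WD + CHP replicate 2, 3 or 4 and in 4 of 10 other settings (adjusted p up to 0.1). Of 30 antioxidant genes, haem oxygenase *Hmox1* was at 26.7, 22.4, 26.5, 22.5 and 20.6 CPM in CD and 36.5, 35.3, 33.1, 39.7 and 31.0 in WD + CHP, without overlap (log2 0.56 ± 0.087, adjusted p = 0.00114), with WD between at 28.7 ± 3.24 CPM. *Srxn1* rose (0.22, 0.0144) and *Gstm1* (-0.43, 0.00454) and *Abcc1* (-0.21) fell. In all, 13.3% of this list passed, against 12.1% of all genes tested. The antioxidant genes passing were 3 higher and 5 lower with DESeq2 and 2 and 1 with RLE size factors. They were 2 higher and 5 lower with total count scaling and 3 and 6 on omission of WD + CHP replicate 5. The call of *Abcc1* was lost without any library other than CD replicate 1 or WD + CHP replicate 1 or 5 and in 4 of 10 other settings (adjusted p up to 0.153).

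Of 24 cytochrome P450 genes outside family 4, *Cyp2s1* fell beside *Cyp24a1* (log2 -0.27, adjusted p = 0.00395). This was 8.33% of the list, against 12.1% of all genes tested. The genes of this list passing were 0 higher and 4 lower with total count scaling and 1 and 4 with no filter. They were 1 higher and 1 lower on omission of CD replicate 2 and 0 and 1 on omission of CD replicate 3 or 5 or WD + CHP replicate 3 or 4. They were 1 higher and 2 lower on omission of WD + CHP replicate 1. Of 14 androgen-dependent tubule genes, *Nat8*, *Slc22a30* and *Cyp4a12a* rose and 0 fell. The androgen-dependent genes passing were 3 higher and 2 lower with total count scaling and 4 and 1 with no filter or length and GC offsets with the block or on omission of WD + CHP replicate 2 or 5. They were 4 higher and 2 lower with length and GC offsets. Of 12 genes of metallothioneins and zinc, the zinc carriers *Slc39a14* (log2 0.20, adjusted p = 0.0271), *Slc39a5* (0.20, 0.0287) and *Slc30a2* (0.38) were higher and *Slc39a1* (-0.11, 0.0367) lower. The call of *Slc39a14* was lost without WD + CHP replicate 3 (adjusted p = 0.0562), and with total count scaling (adjusted p = 0.0787), that of *Slc39a5* without CD replicate 1 (adjusted p = 0.0559), CD replicate 5 (0.0587) or WD + CHP replicate 3 (0.073), and with total count scaling or the 2 groups alone (adjusted p up to 0.0903), and that of *Slc39a1* without any 1 of the 10 libraries (adjusted p from 0.0571 to 0.126), and with no filter, the 2 groups alone, the replicate block, length and GC offsets or length and GC offsets with the block (adjusted p up to 0.161). The call of *Slc30a2* was lost without any library other than CD replicate 2 or WD + CHP replicate 1 or 2 and in 4 of 10 other settings (adjusted p up to 0.113). The zinc genes passing were 0 higher and 1 lower with total count scaling and 1 and 0 with the 2 groups alone or on omission of CD replicate 5. They were 2 higher and 2 lower with the replicate block and 2 and 0 on omission of CD replicate 1, 3 or 4 or WD + CHP replicate 4 or 5. They were 0 higher and 0 lower on omission of WD + CHP replicate 3. Of 10 genes around thyrotropin-releasing hormone and dipeptides, the dipeptidyl peptidase *Dpp4* was higher (log2 0.20, adjusted p = 0.0373), a call that was lost without CD replicate 5 (adjusted p = 0.0811), WD + CHP replicate 3 (0.0872) or WD + CHP replicate 4 (0.0968), and with total count scaling, the 2 groups alone, the replicate block, length and GC offsets or length and GC offsets with the block (adjusted p up to 0.072). In the fit reported, 10% of this list passed, against 12.1% of all genes tested. With total count scaling or on omission of WD + CHP replicate 4, 0 genes of this list were higher and 1 lower, and on omission of CD replicate 4 1 was higher and 1 lower. All 13 protein genes of the mitochondrial genome lay above 0, at a median of 0.28, and *mt-Cytb* and *mt-Co3* passed. *mt-Cytb*, a subunit of complex III, was at 34780, 33250, 35340, 33540 and 32510 CPM in CD and 35140, 43370, 43720, 42550 and 41210 in WD + CHP (log2 0.28 ± 0.065, adjusted p = 0.0104). WD + CHP replicate 1 lay within the CD range and the other 4 above it. *mt-Co3*, a subunit of complex IV, was higher (log2 0.36, adjusted p = 0.0418), a call lost without CD replicate 1 (adjusted p = 0.0814), CD replicate 2 (0.0859), CD replicate 3 (0.0624), WD + CHP replicate 2 (0.086), WD + CHP replicate 3 (0.0963) or WD + CHP replicate 5 (0.0919), and with limma-voom, total count scaling, the 2 groups alone, length and GC offsets or length and GC offsets with the block (adjusted p up to 0.0882). The call of *mt-Cytb* was lost with length and GC offsets with the block (adjusted p = 0.0808). Of these 13 genes, those passing were 5 higher and 0 lower with DESeq2 or on omission of WD + CHP replicate 1 and 1 and 0 with limma-voom, total count scaling, the 2 groups alone or length and GC offsets or on omission of CD replicate 1 or 2 or WD + CHP replicate 2 or 3. They were 4 higher and 0 lower with the replicate block or on omission of CD replicate 4 and 0 and 0 with length and GC offsets with the block. Of 13 hepatocyte markers tested, *Ttr* rose from 106 ± 27.9 to 193 ± 31.6 CPM (log2 0.86, adjusted p = 0.00838) and *Itih1* was lower (log2 -0.56, adjusted p = 0.0317), a call lost without CD replicate 1 (adjusted p = 0.0787), CD replicate 2 (0.062), CD replicate 3 (0.0648), WD + CHP replicate 2 (0.0595), WD + CHP replicate 3 (0.082) or WD + CHP replicate 4 (0.0628).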

How the data were processed

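Frozen kidney was homogenised and its poly(A) RNA sequenced on BGISEQ-500 for 15 mice, 5 per group. Per the labels and methods, the authors used SOAPnuke for cleaning, FastQC for quality control and STAR 2.7.3a for alignment to GRCm38 (mm10), and deposited raw read counts per gene for 54838 genes. The counting tool, annotation release and strand setting are not given in the sources used here, so values of overlapping genes and close copies are uncertain. Coordinates came from GENCODE M21, which holds 54809 of the IDs.

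Genes were kept by filterByExpr (minimum count 10, 17120 genes, at least 99.91% of the counts of each library), scaled by TMM and tested with edgeR 4.0.16 (R 4.3.3) by a two-sided quasi-likelihood test with 1 mean per group over all 15 kidney libraries, with Benjamini-Hochberg adjustment over all genes and a threshold of 0.05. CPM are scaled by these factors, and totals of 37189192 to 38211422 counts limit precision for genes of few counts. Single values were compared by exact permutation over the 252 splits of 10 libraries. Named were the 12 largest rises and 12 largest falls among genes that passed, did not overlap and had a mean log2 CPM of at least 1, up to 3 passing genes of each of 38 lists with the smallest p, and *Col1a1*, *Col3a1*, *Timp1*, *Fabp4*, *Cidea*, *Havcr1*, *Lcn2* and *Slc15a2*, in all 101 genes. Other passing list members and the paired promoter element were added after the values were seen. The comparison, members and lists were chosen with earlier results of these data known. On simulated counts for this comparison (17120 genes, 200 of them changed), 90% of log2 changes of 1 were recovered, with 0 of wrong sign. The changed genes had a mean count of at least 10. The simulated spread followed its trend over expression, without gene-specific differences, so these shares need not hold for the real counts. Alternatives were DESeq2 1.42.0, limma-voom (limma 3.58.1), other scalings, filters and thresholds, the 2 groups alone, a replicate block, length and GC offsets, and each library left out. Gastrocnemius libraries were not used here. Results of some genes are not reported here.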

Additional observations from a re-analysis of the deposited data

Results flagged for a closer look

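In 12 of 198 sets of 5 libraries, the highest or lowest library was separated from the other 4 by more than 0.71 of the range, Dixon's 95% line for 5 values, and chance alone puts about 1 in 20 sets past it. Among CD libraries, replicate 5 was high for *Angptl4* (134.9 CPM, others 94.3 to 101.7) and *Igfbp1* (31.62, others 20.26 to 23.55), both of which fell in WD + CHP. CD replicate 4 was high for *Ces1g* (48.11 CPM, others 16.5 to 24.41), CD replicate 3 low for *Abcg1* (4.053, others 6.651 to 7.429), CD replicate 1 high for *Slc39a14* (47.29, others 42.28 to 43.72) and CD replicate 2 high for *Slc39a1* (78.35, others 73.68 to 74.67).

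Among WD + CHP libraries, replicate 3 was high for *Tmem52* (5.898 CPM, others 3.938 to 4.048) and *Clu* (264.5, others 221.5 to 233.8). Replicate 4 was high for *Cxcl1* (4.437 CPM, others 0.7577 to 1.725). Replicate 5, which also stood apart on the second principal component, was low for *C2* (4.059 CPM, others 4.57 to 4.708) and *Ifih1* (14.91, others 17.11 to 17.52) and high for *Cidea* (2.084, others 0 to 0.4106).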

How the results depend on the processing

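Against 2070 genes passing, DESeq2 gave 2421 and limma-voom 2057, of which 1996 and 1988 were among the 2070. An adjusted p under 0.1 gave 3232, an absolute log2 fold change of at least 1 gave 159, no filter 1579, the 2 groups alone 1566, and scaling by total count alone 2474, of which 26.7% were higher against 51.7% in the fit reported. A replicate block gave 1970 and, with length and GC offsets, 1875. The replicate numbers did not pair the samples: same-numbered deviations correlated at -0.0473 to 0.119 and only replicate 5 correlated best with its own number. The block ended 4 of the 94 calls among the 101 genes chosen by rule. Leaving out 1 library gave 1202 to 2150 genes, a difference in mitochondrial share of 1.312 to 1.909 percentage points, which missed 0.05 (exact permutation p = 0.0556) in 5 of these 10 cases, and a distance between group centres of 20.64 to 23.18 (34.79 over all genes). Of the 94 calls, 73 held in all 10 fits without 1 library and 13 in 5 or fewer. *Fabp4* and *Cidea*, which did not pass, ranged over log2 values of -0.08204 to 0.1272 and -1.35 to 0.6235 in these fits, turning positive in 3 and 6 of them (from 0.003287 and 0.1068). On simulated counts 62% of log2 changes of 0.5 were recovered. Only 200 genes were changed there, against 2070 passing here, and the simulated spread differed from the real one. The share of small changes missed in the real counts was not tested. The cause of these shifts was not tested.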
